A study of Mus musculus with 10 samples.

Results

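T cells and NK cells were followed through 10 marker genes in lung tumors and liver metastases of mice with small cell lung cancer: Cd3d, Cd3e, Cd3g, Cd4, Cd8a, Cd8b1, Nkg7, Gzma, Gzmb and Prf1. They were chosen by gene symbol, 10 of the 35288 gene identifiers in the expression table, and all 10 were found. Of these, 4 (Cd3g, Cd4, Nkg7 and Gzma) averaged 1 TPM or more across the 10 libraries and so were among the 15503 genes tested. The other 6 fell below that level. TPM is a level normalized for gene length and scaled so that every library has the same total. The set holds T cell genes and granule genes that T cells and NK cells share. Among genes outside the set, Ncr1, which encodes the NK cell receptor NKp46, did not exceed 0.259 TPM, and Klrd1, which encodes CD94, reached 1.99 TPM. The markers were scarce: no member averaged above 5.81 TPM, which was the mean of Gzma, and 9 of the 10 members lay above the median of the mean level of all identifiers.

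T cells recognize antigen through the T cell receptor, which reaches the cell surface only together with the CD3 chains encoded by Cd3d, Cd3e and Cd3g. The coreceptors divide the cells: CD4 binds MHC class II and marks helper and regulatory T cells, and CD8, made of the Cd8a and Cd8b1 products, binds MHC class I and marks killer T cells. Killer T cells and NK cells destroy target cells by releasing granules, in which perforin (Prf1) opens the way for the serine proteases granzyme A (Gzma) and granzyme B (Gzmb). Nkg7 encodes a membrane protein of these granules. Small cell lung cancer is a neuroendocrine tumor that is generally poor in T cells.

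The tumors came from mice of the genotypes RPR2;Nfibf/f (Nfib-floxed for short) and RPR2. RPR2 mice carry conditional deletions of Rb1, Trp53 and Rbl2, and the Nfib-floxed mice carry floxed Nfib alleles in addition, so both genotypes share the 3 deletions. The 4 groups were Nfib-floxed liver metastases (n = 2, mice JHK1398 and JHK1399), RPR2 liver metastases (n = 2, JHK1373 and JHK1394), Nfib-floxed lung tumors (n = 3, JHK997, JHK1398 and JHK1399) and RPR2 lung tumors (n = 3, JHK1373, JHK1394 and JHK1548). Values of a group are listed below in that order of mice, and 4 of the 6 mice gave both tissues. Tumors were macrodissected at morbidity, so each library holds tumor cells with whatever other cells lay in the piece. No source used here gives the age of the mice or how recombination was induced.

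Some libraries stood apart in genes of other cell types. The club cell gene Scgb1a1 reached 50157 TPM in the Nfib-floxed lung tumor of JHK1398 and 54787 TPM in the RPR2 lung tumor of JHK1394, against 1358 to 9650 TPM in the other 4 lung tumors. The hepatocyte gene Alb was 26.3 TPM in the Nfib-floxed metastasis of JHK1398, a level seen in lung tumors, and 1159 to 3760 TPM in the other 3 metastases. Scgb1a1 was 6.92 TPM in the same library, below every lung tumor, so the gene of neither tissue marks it, and its label as a liver metastasis could not be checked. Without this library limma called 0 members in each comparison, and the adjusted p of Gzma in the mean tissue effect was 0.207. Nfib itself was 46.1 and 41.3 TPM in Nfib-floxed metastases and 62.8 and 643 TPM in RPR2 metastases. It was 38.6, 38.0 and 26.5 TPM in Nfib-floxed lung tumors and 85.3, 28.3 and 118 TPM in RPR2 lung tumors. The genotypes overlapped in lung tumors, and a level summed over the whole gene does not show whether the floxed part was removed. Each library sums to 1000000 TPM and holds no read depth, so the depth behind a level of 0 or 0.1 TPM is unknown.

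The leukocyte gene Ptprc, which encodes CD45, gives the background for immune cells. Its level was 2.01 and 3.52 TPM in Nfib-floxed metastases and 7.42 and 3.25 TPM in RPR2 metastases. In lung tumors it was 4.51, 11.5 and 6.63 TPM in Nfib-floxed mice, and 5.67, 22.4 and 9.97 TPM in RPR2 mice. The 10 members summed to 1.64 and 5.60 TPM in Nfib-floxed metastases and 10.7 and 5.34 TPM in RPR2 metastases. In lung tumors the sum was 4.82, 26.0 and 26.3 TPM in Nfib-floxed mice, and 12.6, 39.9 and 30.2 TPM in RPR2 mice. Most of the sum in JHK1399 was Cd3g: without Cd3g it came to 2.07 TPM in the metastasis and 8.80 TPM in the lung tumor of that mouse, against 21.1 TPM in the lung tumor of JHK1398. In these bulk libraries fewer cells of a type and less RNA per cell cannot be told apart. The Nfib-floxed metastasis of JHK1398 was the lowest library for 7 of the 10 members, 3 of them listed at 0, and the Nfib-floxed lung tumor of JHK1398 was the highest for 5. The RPR2 lung tumor of JHK1548 was the highest for 3. How many of all genes were lowest or highest in these libraries was not counted, so these counts describe the members only. Ptprc too was lowest in the Nfib-floxed metastasis of JHK1398.

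**Figure D1:**
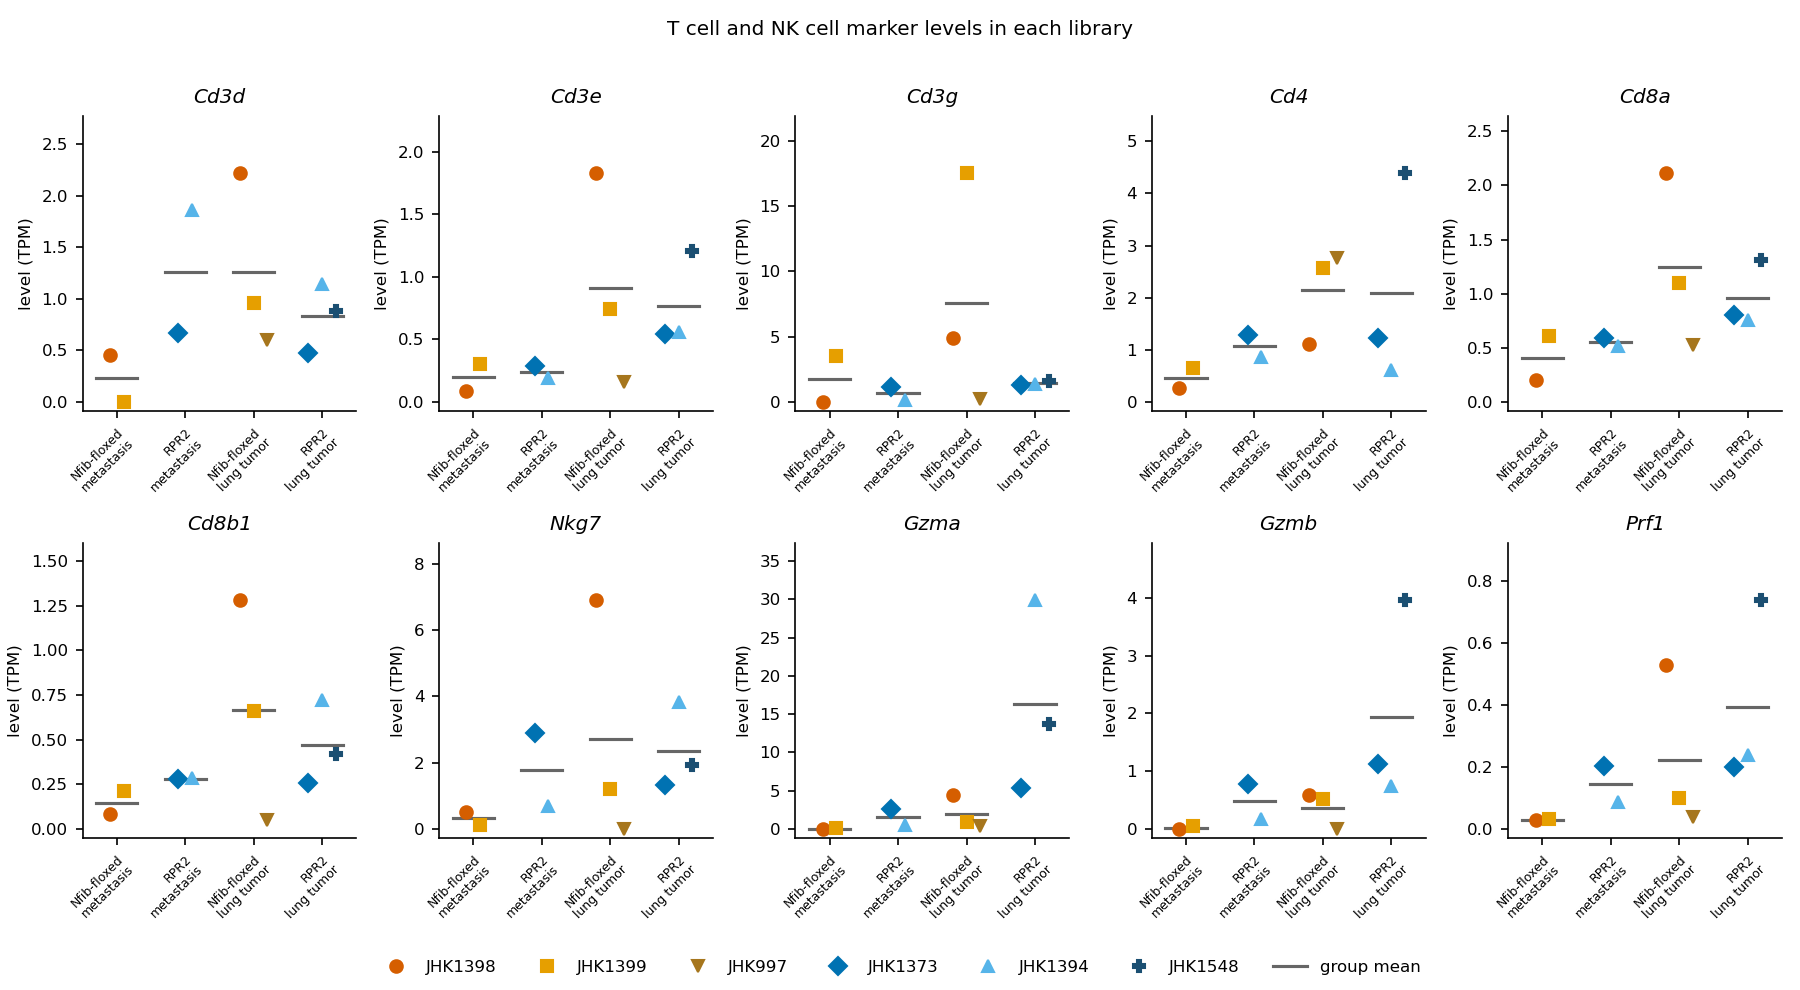
Level in TPM (vertical axes, each on its own scale) of the 10 marker genes in the 4 groups, with a symbol for each mouse and a horizontal line at the group mean. Counting a tie for Gzmb, 8 members had their lowest value in an Nfib-floxed metastasis, a pattern not counted over all genes. Cd3g and Gzma each had a library far above the rest, at 17.5 and 30.0 TPM.

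The 3 Cd3 genes lie side by side on chromosome 9 (GRCm38). Cd3g (ENSMUSG00000002033) spans 44969572 to 44980431 on the minus strand, Cd3d (ENSMUSG00000032094) 44981786 to 44987339 on the plus strand, and Cd3e (ENSMUSG00000032093) 44998740 to 45009627 on the minus strand. The divergent genes Cd3g and Cd3d are 1354 bases apart, and 11400 bases separate Cd3d from Cd3e. An antisense gene, Gm48719, lies within Cd3e, and no source used here says whether the quantification used strand. Because Cd3g departed from its neighbours in mouse JHK1399, as described below, the 250 bases before each transcription start are shown, from RefSeq (GRCm38.p6), 5′ to 3′ on the gene's strand. Capitals mark matches, on either strand, to the motifs searched: CAGCTG (E-box), TGTGGT (RUNX), AGGAAG (ETS) and TGANTCA (AP-1).
Cd3g chr9:44980432-44980681 (minus): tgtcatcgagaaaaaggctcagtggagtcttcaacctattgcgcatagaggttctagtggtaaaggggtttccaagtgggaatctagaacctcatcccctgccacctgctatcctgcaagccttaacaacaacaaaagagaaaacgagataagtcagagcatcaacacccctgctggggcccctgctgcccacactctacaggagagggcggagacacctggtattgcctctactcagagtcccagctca
Cd3d chr9:44981536-44981785 (plus): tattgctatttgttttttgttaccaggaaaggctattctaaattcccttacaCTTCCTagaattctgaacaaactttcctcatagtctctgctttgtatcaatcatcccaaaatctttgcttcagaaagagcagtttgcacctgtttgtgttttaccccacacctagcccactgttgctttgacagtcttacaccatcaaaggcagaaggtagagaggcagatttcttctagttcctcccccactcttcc
Cd3e chr9:45009612-45009861 (minus): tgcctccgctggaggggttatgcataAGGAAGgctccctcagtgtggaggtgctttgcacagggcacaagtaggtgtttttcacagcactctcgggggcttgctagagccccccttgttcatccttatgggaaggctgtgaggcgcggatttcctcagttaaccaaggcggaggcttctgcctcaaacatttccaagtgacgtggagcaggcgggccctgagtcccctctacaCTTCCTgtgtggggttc
The Cd3g window held no match, the Cd3d window held 1 ETS match and the Cd3e window held 2 ETS matches. Among 32851 such windows, 29.5% hold the ETS letters, 14.0% the RUNX letters, 13.0% the E-box letters and 6.75% the AP-1 letters, so these matches are common. The RefSeq start of Cd3e lies within the gene span given above, so its window overlaps that span.

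Cd3e, which encodes the epsilon chain, was 0.0864 and 0.307 TPM in Nfib-floxed metastases and 0.290 and 0.195 TPM in RPR2 metastases. In lung tumors Cd3e was 0.157, 1.83 and 0.746 TPM in Nfib-floxed mice and 0.545, 0.560 and 1.21 TPM in RPR2 mice. Cd3e was thus lower in both RPR2 metastases than in all 3 RPR2 lung tumors, while the Nfib-floxed groups overlapped through the low lung tumor of JHK997. Cd3d, the delta chain gene, was 0.459 TPM and listed at 0 in Nfib-floxed metastases, and was 0.668 and 1.86 TPM in RPR2 metastases. In lung tumors Cd3d was 0.604, 2.22 and 0.957 TPM in Nfib-floxed mice and 0.474, 1.15 and 0.878 TPM in RPR2 mice. The Cd3d values of the Nfib-floxed metastases lay below those of every other library, and the RPR2 metastasis of JHK1394 was the second highest of all.

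Cd3g, the gamma chain gene, was listed at 0 and was 3.53 TPM in Nfib-floxed metastases, and was 1.13 and 0.188 TPM in RPR2 metastases. In lung tumors it was 0.241, 4.93 and 17.5 TPM in Nfib-floxed mice and 1.32, 1.37 and 1.64 TPM in RPR2 mice. Cd3g therefore departed from its neighbours in mouse JHK1399, in both tissues. The ratio of Cd3g to the sum of Cd3d and Cd3e was 11.5 in the metastasis and 10.3 in the lung tumor of JHK1399, and between 0 and 1.30 in the other 8 libraries. Of the summed Cd3 level, Cd3g made up 92.0% and 91.1% in these tumors, against 24.1% and 54.9% in the Nfib-floxed lung tumors of JHK997 and JHK1398 and 44.1% to 56.5% in RPR2 lung tumors. The constant region genes of the T cell receptor, Trac, Trbc1 and Trbc2, summed to 1.95 TPM in the metastasis and 4.96 TPM in the lung tumor of JHK1399, against 40.0 TPM in the Nfib-floxed lung tumor of JHK1398, where Cd3g was lower. Whether the reads behind Cd3g in JHK1399 come from spliced Cd3g transcripts cannot be seen in TPM values. Over the 10 libraries, which come from 6 mice, Pearson r of log2(TPM + 1) was 0.095 between Cd3d and Cd3g, 0.598 between Cd3e and Cd3g and 0.516 between Cd3d and Cd3e, given as a description.

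**Figure D2:**
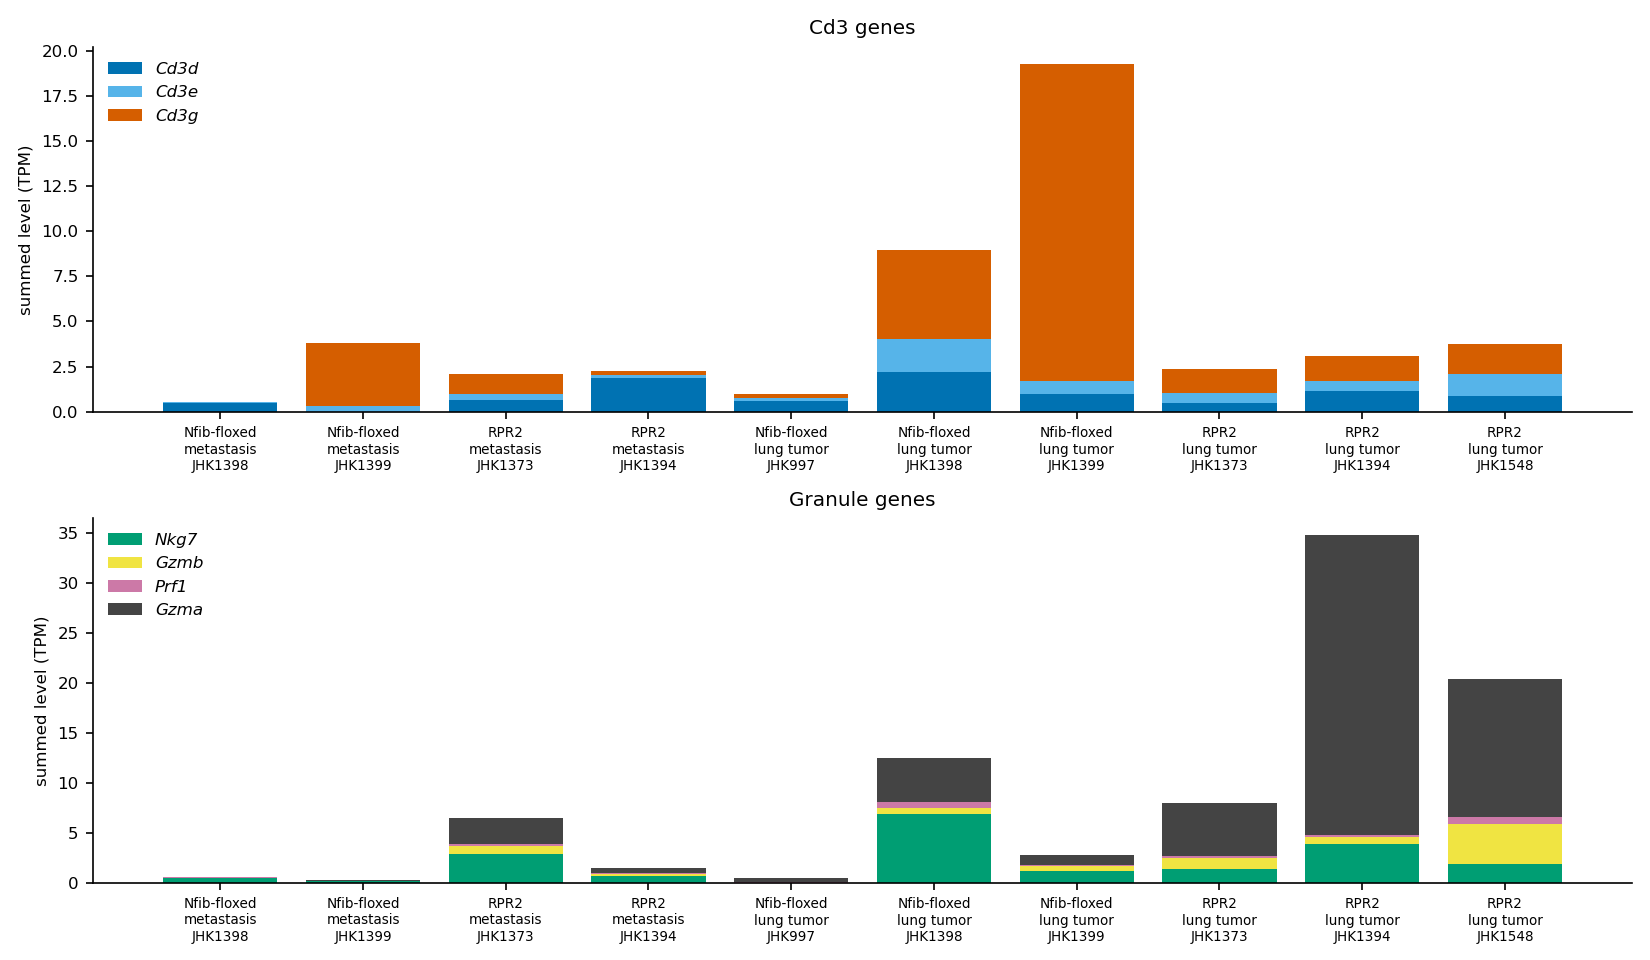
Level in TPM (vertical axis), stacked over the 3 Cd3 genes (top) and the 4 granule genes (bottom), in each of the 10 libraries (horizontal axis). Cd3g makes up most of the Cd3 bar in both tumors of JHK1399, and Gzma most of the granule bar in the 3 RPR2 lung tumors.

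Among the coreceptors, Cd4 (ENSMUSG00000023274, chromosome 6, 124864692 to 124888221, minus strand) was 0.265 and 0.657 TPM in Nfib-floxed metastases and 1.28 and 0.853 TPM in RPR2 metastases. In lung tumors Cd4 was 2.77, 1.11 and 2.56 TPM in Nfib-floxed mice and 1.23, 0.616 and 4.39 TPM in RPR2 mice. The Nfib-floxed metastases lay below all Nfib-floxed lung tumors and below both RPR2 metastases. Cd8a (ENSMUSG00000053977, chromosome 6, 71373427 to 71379173, plus strand) and Cd8b1 (ENSMUSG00000053044, chromosome 6, 71322788 to 71337494, plus strand) encode the chains of CD8 and lie 35932 bases apart. Cd8a was 0.200 and 0.608 TPM in Nfib-floxed metastases and 0.592 and 0.520 TPM in RPR2 metastases, against 0.528, 2.11 and 1.10 TPM in Nfib-floxed lung tumors and 0.807, 0.758 and 1.31 TPM in RPR2 lung tumors. Cd8b1 was 0.0819 and 0.209 TPM in Nfib-floxed metastases and 0.280 and 0.283 TPM in RPR2 metastases, against 0.0508, 1.28 and 0.662 TPM in Nfib-floxed lung tumors and 0.258, 0.722 and 0.421 TPM in RPR2 lung tumors.

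Cd8a followed Cd3e closely, with Pearson r of 0.977 over the 10 libraries, the highest of the 45 member pairs, whereas Cd4 followed it at 0.395. These libraries share mice and tissue composition, so the values describe likeness only. The ratio of summed Cd8a and Cd8b1 to Cd4 was 1.07 and 1.24 in Nfib-floxed metastases and 0.683 and 0.941 in RPR2 metastases. In lung tumors it was 0.209, 3.05 and 0.689 in Nfib-floxed mice and 0.863, 2.40 and 0.393 in RPR2 mice. The highest ratios were thus those of the lung tumors rich in Scgb1a1, from JHK1398 and JHK1394, and the lung tumors differed more among themselves than the metastases did.

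The granule genes lie apart: Gzma (ENSMUSG00000023132) on chromosome 13, 113093825 to 113100981, minus strand; Gzmb (ENSMUSG00000015437) on chromosome 14, 56258838 to 56262260, minus strand; Prf1 (ENSMUSG00000037202) on chromosome 10, 61297833 to 61304680, plus strand; and Nkg7 (ENSMUSG00000004612) on chromosome 7, 43437073 to 43438249, plus strand. The windows of the granzymes are shown because these were the only members whose lung tumor groups did not overlap between genotypes.
Gzma chr13:113100982-113101231 (minus): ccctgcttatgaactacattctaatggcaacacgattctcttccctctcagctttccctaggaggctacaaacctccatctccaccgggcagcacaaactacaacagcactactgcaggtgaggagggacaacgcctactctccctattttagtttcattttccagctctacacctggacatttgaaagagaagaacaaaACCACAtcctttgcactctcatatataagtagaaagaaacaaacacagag
Gzmb chr14:56262335-56262584 (minus): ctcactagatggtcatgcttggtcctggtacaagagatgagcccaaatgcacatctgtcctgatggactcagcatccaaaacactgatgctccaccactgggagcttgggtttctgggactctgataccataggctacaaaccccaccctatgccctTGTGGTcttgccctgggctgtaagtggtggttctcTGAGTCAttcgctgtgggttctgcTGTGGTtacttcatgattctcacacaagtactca
The Gzma window held 1 RUNX match, 50 bases before the start, and the Gzmb window held 2 RUNX matches, 93 and 34 bases before it, and 1 AP-1 match, 58 bases before it. These distances are from the RefSeq start, which for Gzmb lies upstream of the gene span given above. Of the 10 members, 8 were in the RefSeq table, and RUNX letters also occurred in the windows of Nkg7 and Prf1.

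Gzma was listed at 0 and was 0.0869 TPM in Nfib-floxed metastases, and was 2.60 and 0.501 TPM in RPR2 metastases. In lung tumors Gzma was 0.434, 4.46 and 0.954 TPM in Nfib-floxed mice and 5.34, 30.0 and 13.7 TPM in RPR2 mice. The RPR2 lung tumors were the 3 highest libraries and the Nfib-floxed metastases the 2 lowest. Gzmb was listed at 0 and was 0.0450 TPM in Nfib-floxed metastases, against 0.783 and 0.174 TPM in RPR2 metastases. In lung tumors Gzmb was listed at 0 and was 0.590 and 0.514 TPM in Nfib-floxed mice, against 1.12, 0.734 and 3.97 TPM in RPR2 mice. All RPR2 lung tumors lay above every Nfib-floxed library, as for Gzma, but they overlapped with RPR2 metastases, and the RPR2 lung tumor of JHK1548 lay far above the rest.

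Prf1 was 0.0295 and 0.0307 TPM in Nfib-floxed metastases and 0.203 and 0.0876 TPM in RPR2 metastases, against 0.0367, 0.528 and 0.101 TPM in Nfib-floxed lung tumors and 0.200, 0.239 and 0.739 TPM in RPR2 lung tumors. Nkg7 was 0.521 and 0.128 TPM in Nfib-floxed metastases and 2.90 and 0.676 TPM in RPR2 metastases. In lung tumors Nkg7 was listed at 0 and was 6.92 and 1.20 TPM in Nfib-floxed mice, and was 1.33, 3.84 and 1.92 TPM in RPR2 mice. Unlike the granzymes, Nkg7 was highest in an Nfib-floxed lung tumor, that of JHK1398. Gzma made up 66.9%, 86.2% and 67.5% of the summed granule genes in RPR2 lung tumors, against 40.1% and 34.8% in RPR2 metastases. In the Nfib-floxed lung tumors of JHK1398 and JHK1399 its share was 35.7% and 34.5%. In that of JHK997 it was 92.2%, of a summed level of only 0.470 TPM.

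Whether the floxed Nfib alleles went with a different T cell and NK cell content was first asked in lung tumors. No member passed in limma, which compared mean log2(TPM + 1) and called a gene at a Benjamini-Hochberg adjusted p under 0.05 over all genes tested. No gene at all passed in this comparison (0% of the genes tested), and 1230 genes, Gzma among them, had an unadjusted p under 0.05. Gzma averaged 1.95 ± 2.19 TPM in Nfib-floxed and 16.3 ± 12.5 TPM in RPR2 lung tumors (SD, n = 3 each). Its difference was -2.52 ± 0.68 (SE) on the log2 scale, with an unadjusted p = 0.00369 and an adjusted p = 0.595 in limma. The groups did not overlap for Gzma and Gzmb, both lower in Nfib-floxed tumors. Such a pattern was found in 8.81% of genes averaging at least 1 TPM and in 1.61% of those below that mean and above 0 in a library, and in 1 of 4 and 1 of 6 members. The differences of the other tested members were 1.08 for Cd3g (95% confidence interval -0.88 to 3.03), 0.18 for Cd4 (-0.95 to 1.31) and -0.30 for Nkg7 (-1.87 to 1.26). The sign of Cd4 and Nkg7, but not that of Cd3g, turned when a library was left out: Cd4 came to -0.19 without the RPR2 tumor of JHK1394, and Nkg7 to 0.38 without the Nfib-floxed tumor of JHK997.

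In metastases the same genotype comparison called 2.04% of genes in limma and no member, and no member had an unadjusted p under 0.05. The Nfib-floxed values nevertheless lay below both RPR2 values for 7 of the 10 members: Cd3d, Cd4, Cd8b1, Nkg7, Gzma, Gzmb and Prf1. With 2 libraries a group this pattern is frequent: it held for 22.0% of genes averaging at least 1 TPM and for 13.2% of those below that level. The count was 7 without the Nfib-floxed metastasis of JHK1398, where the shares were 34.9% and 17.1%, and 10 without that of JHK1399, where they were 38.5% and 21.4%. Nkg7 averaged 0.324 ± 0.278 TPM in Nfib-floxed and 1.79 ± 1.57 TPM in RPR2 metastases (SD, n = 2 each), and its log2 difference was -0.97 (95% confidence interval -2.88 to 0.95). That of Gzma was -1.16 (-3.00 to 0.68), that of Cd4 -0.51 (-1.89 to 0.88) and that of Cd3g 0.42 (-1.97 to 2.81). Cd3g turned to -0.67 without the Nfib-floxed metastasis of JHK1399. Kupffer cell and hepatocyte genes differed between the same metastases: 3 of 6 and 1 of 10 were called lower in Nfib-floxed metastases, and the Alb levels above show the same split. Their part in the members' differences was not tested.

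Metastases were then set against lung tumors. In RPR2 mice 5.61% of genes were called in limma and no member, although Gzma came near with a log2 difference of -2.61 ± 0.76 (SE, adjusted p = 0.0766, unadjusted p = 0.00585), from 1.55 ± 1.49 TPM in RPR2 metastases (SD, n = 2) and 16.3 ± 12.5 TPM in RPR2 lung tumors (SD, n = 3). Without the RPR2 lung tumor of JHK1373, which at 5.34 TPM had the lowest Gzma of that group, the adjusted p of Gzma in limma was 0.0484. Of 21 alternatives for this comparison 2 took Gzma past the threshold and 19 did not. Values did not overlap, and were lower in metastases, for Cd3e, Cd3g, Cd8a and Gzma. That pattern held for 31.0% of genes averaging at least 1 TPM, which include Cd3g and Gzma, and for 6.48% of those below it, which include Cd3e and Cd8a. Cd3g differed by -0.62 (95% confidence interval -2.80 to 1.56), Cd4 by -0.39 (-1.65 to 0.87) and Nkg7 by -0.32 (-2.07 to 1.42). Nkg7 came to 0.29 without the RPR2 metastasis of JHK1394, and Cd4 to 0.11 without the RPR2 lung tumor of JHK1548.

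In Nfib-floxed mice limma called 0.123% of genes between metastases and lung tumors and no member, and none had an unadjusted p under 0.05. All 4 tested members had negative differences, with -1.28 for Cd3g (95% confidence interval -3.46 to 0.91), -1.08 for Cd4 (-2.34 to 0.19), -0.99 for Nkg7 (-2.73 to 0.76) and -1.25 for Gzma (-2.93 to 0.43). Values did not overlap, and were lower in metastases, for Cd3d, Cd4, Gzma and Prf1. This held for 14.8% of genes averaging at least 1 TPM and 9.19% of those below it. The median difference of the 4 tested members was -1.16, against -0.05 over all genes tested.

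**Figure D3:**
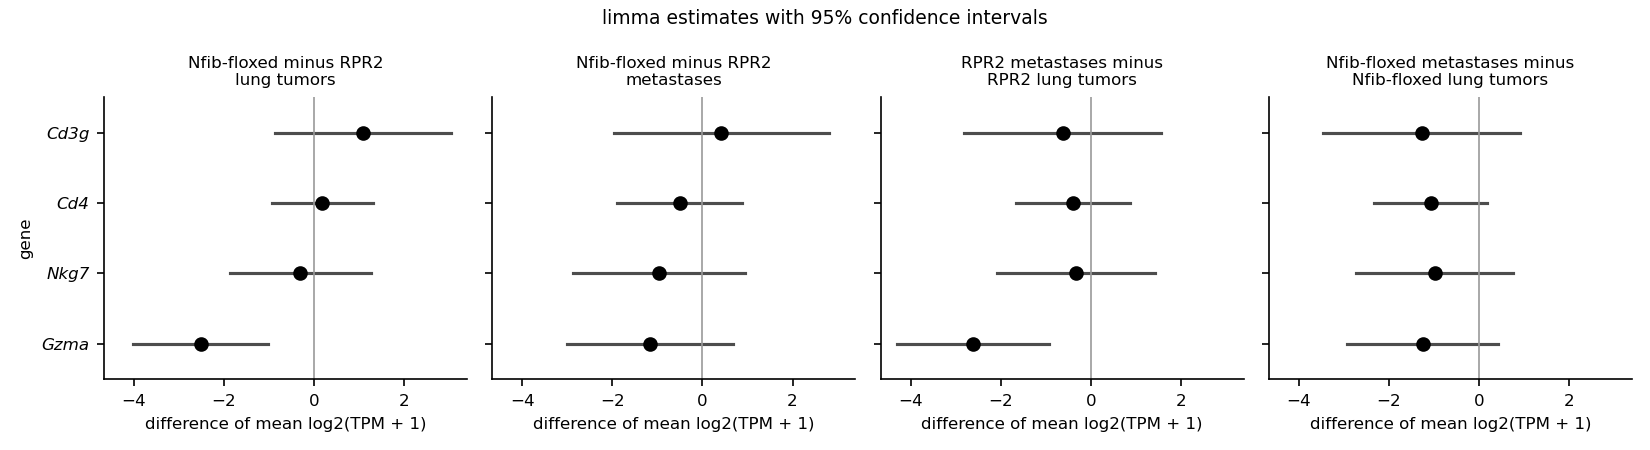
Difference of mean log2(TPM + 1) (horizontal axis) for the 4 tested members (rows) in 4 comparisons (panels), with points for the limma estimate and lines for its 95% confidence interval. The interval leaves out 0 for Gzma in both the genotype comparison of lung tumors and the RPR2 tissue comparison, before adjustment over all genes.

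Averaged over both genotypes, limma called 5.88% of genes between metastases and lung tumors. No member was among them. Gzma had a log2 difference of -1.93 ± 0.54 (SE, adjusted p = 0.0642) and was the only tested member with an unadjusted p under 0.05. Without the RPR2 lung tumor of JHK1373 its adjusted p in limma was 0.0382. Of 20 alternatives for this effect 2 took Gzma past the threshold and 18 did not. The mean genotype effect called 0.639% of genes, and no member, and Gzma, the only tested member with an unadjusted p under 0.05, gave -1.84 ± 0.54 (SE, adjusted p = 0.161). The interaction, which asks whether the tissue difference depended on genotype, called 0.581% of genes in limma and no member, with adjusted p from 0.805 to 0.953 and no unadjusted p under 0.05. When limma was run with no filter on low levels, all 10 members entered the test among 25185 genes and none was called in any of the 7 comparisons. In that fit Gzmb differed between Nfib-floxed and RPR2 lung tumors by -0.97 ± 0.39 (SE, unadjusted p = 0.0373, adjusted p = 0.724), and in the mean genotype effect by -0.74 ± 0.31 (SE, unadjusted p = 0.0440, adjusted p = 0.441).

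The 4 mice that gave both tissues allow each metastasis to be set beside the lung tumor of the same animal. Levels of 5 members, Cd3e, Cd3g, Cd8a, Gzma and Gzmb, were lower in the metastasis in 4 of 4 mice. Among genes averaging at least 1 TPM, which include Cd3g and Gzma, 14.0% did so, and among those below it 4.69%. The Gzma difference in log2(TPM + 1), metastasis minus lung tumor, was -2.45 in JHK1398 and -0.85 in JHK1399, both Nfib-floxed, and -0.82 in JHK1373 and -4.37 in JHK1394, both RPR2. Cd8b1, Nkg7 and Prf1 were lower in 3 of 4 mice, with JHK1373 as the exception for each. For Prf1 the exception was slight, 0.203 TPM in the metastasis against 0.200 TPM in the lung tumor. All 4 metastases lay below all 6 lung tumors for no member, a pattern of 4.16% and 1.36% of the same classes of genes. Without JHK1373, 8 of the 10 members were lower in every mouse, as were 18.6% and 8.49% of genes in these classes. The count was 5 without JHK1394, against 17.8% and 8.59% of genes, and 5 without JHK1398, against 25.8% and 6.18%.

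Cd3d and Cd4 were the exceptions in the paired mice. Both were lower in the metastasis in both Nfib-floxed mice and higher in both RPR2 mice, a pattern of 4.37% of genes averaging at least 1 TPM and 3.57% of those below it. The Cd4 differences were -0.74 in JHK1398 and -1.10 in JHK1399, against 0.03 in JHK1373 and 0.20 in JHK1394. Those of Cd3d were -1.14 and -0.97 in the same Nfib-floxed mice and 0.18 and 0.41 in the RPR2 mice. The interaction in limma gave -0.69 ± 0.81 (SE) for Cd4, an estimate smaller than its SE, with an adjusted p = 0.901. That fit took all libraries without pairing, among them the lung tumors of the unpaired mice JHK997 and JHK1548. It therefore does not test the pattern within mice. A further limma fit took mouse as a fixed block and so compared the tumors of each mouse. Cd4 was not called in the interaction of that fit, and Cd3d was below the level tested.

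**Figure D4:**
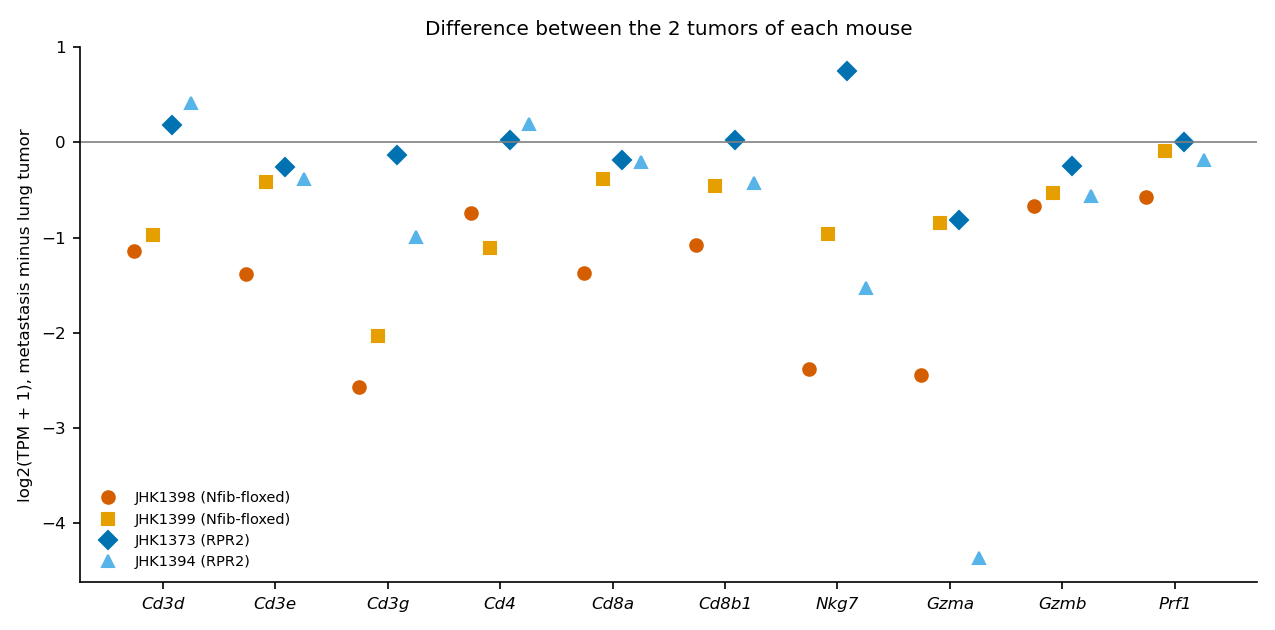
Difference in log2(TPM + 1) between the metastasis and the lung tumor of each mouse (vertical axis) for the 10 members (horizontal axis), with a symbol for each of 4 mice. Points below the line at 0 are lower in the metastasis, and Cd3d and Cd4 show the Nfib-floxed mice below the line and the RPR2 mice above it.

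Ptprc was itself lowest in an Nfib-floxed metastasis and highest in an RPR2 lung tumor, so the members were also set against Ptprc in the same library. The summed granule genes stood to Ptprc at 0.273 and 0.0824 in Nfib-floxed metastases and 0.876 and 0.442 in RPR2 metastases. In lung tumors the ratio was 0.104, 1.09 and 0.417 in Nfib-floxed mice and 1.41, 1.55 and 2.04 in RPR2 mice. The RPR2 lung tumors were the 3 highest libraries for granule genes per Ptprc, which they were not before division: the summed level was 7.99 TPM in that of JHK1373, against 12.5 TPM in the Nfib-floxed lung tumor of JHK1398. The order rested on Gzma. Without it the ratio was 0.467, 0.215 and 0.664 in RPR2 lung tumors, and it was higher, at 0.699, in the Nfib-floxed lung tumor of JHK1398. For summed Cd8a and Cd8b1 the ratio was 0.140 and 0.232 in Nfib-floxed metastases and 0.118 and 0.247 in RPR2 metastases, against 0.129, 0.295 and 0.266 in Nfib-floxed lung tumors and 0.188, 0.0662 and 0.173 in RPR2 lung tumors. These ranges overlapped in all 4 groups, and the lowest was the RPR2 lung tumor of JHK1394, where Ptprc was highest. Summed Cd3d and Cd3e stood to Ptprc at 0.0871 to 0.632 in metastases and 0.0764 to 0.352 in lung tumors. The highest of these was the RPR2 metastasis of JHK1394. For Cd4 the ratio was 0.131 to 0.262 in metastases and 0.0275 to 0.615 in lung tumors. Per Ptprc, neither was thus lower throughout in metastases.

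Other genes of the pathways were read from lists. Of 20 genes of the T cell receptor complex and its signalling, 13 were tested and none passed in any comparison in limma. The nearest in the mean genotype effect was Zap70, a kinase of the receptor, named after its values were seen. It was 2.66 and 11.3 TPM in Nfib-floxed metastases and 0.766 and 0.792 TPM in RPR2 metastases, and in lung tumors 16.1, 7.93 and 23.9 TPM in Nfib-floxed mice and 1.93, 1.38 and 4.73 TPM in RPR2 mice. Its mean genotype effect was 2.05 ± 0.45 (SE, unadjusted p = 0.000972, adjusted p = 0.0844 in limma), opposite in sign to that of Gzma. Zap70 does not stand for its list: 8 of the 13 tested genes had negative differences in that effect and 5 positive ones. The median of the list was -0.20, against -0.04 over all genes tested. The constant region genes Trac, Trbc1 and Trbc2 summed to 0.504 and 1.95 TPM in Nfib-floxed metastases and 6.18 and 5.01 TPM in RPR2 metastases. In lung tumors their sum was 1.19, 40.0 and 4.96 TPM in Nfib-floxed mice and 3.67, 11.8 and 9.83 TPM in RPR2 mice. Like Cd3d and Cd3e they were highest in the Nfib-floxed lung tumor of JHK1398, and like Cd3e they were lowest in the Nfib-floxed metastasis of the same mouse. The list's most abundant genes did not share that order. Skap1, a T cell adaptor, was 152 TPM and Fyn, a Src family kinase with wide expression, was 44.7 TPM in the Nfib-floxed metastasis of JHK1398, where Cd3g was listed at 0. Among 20 genes of T cell subsets and states 8 were tested and none passed, and Tox, a transcription factor of T cells and of other cells, was 34.4 TPM in that metastasis.

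NK cells have few genes of their own, and none of the 18 genes of the NK cell and innate lymphocyte list averaged 1 TPM. Ncr1 was listed at 0 in 6 of the 10 libraries, from all 4 groups, and reached at most 0.259 TPM, in the Nfib-floxed lung tumor of JHK1398. Klrd1, which encodes CD94, was 0 to 0.344 TPM in Nfib-floxed metastases and 0.790 to 1.99 TPM in RPR2 metastases. In lung tumors it was 0.415 to 1.93 TPM in Nfib-floxed mice and 0.119 to 1.43 TPM in RPR2 mice. The list summed to 1.11 to 2.63 TPM in Nfib-floxed metastases and 4.23 to 5.55 TPM in RPR2 metastases. In lung tumors its sum was 3.77 to 9.63 TPM in Nfib-floxed mice and 2.47 to 8.89 TPM in RPR2 mice. The shares of T cells and NK cells in the granule genes cannot be told apart in these libraries.

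Of 18 further cytotoxic effector genes 10 were tested, and none passed in any comparison in limma. In the mean tissue effect all 10 differences were negative, with a median log2 difference of -1.09 against -0.10 over all genes tested and a lowest adjusted p of 0.0612 in limma. This was not particular to cytotoxic genes. All tested pan-leukocyte (6), macrophage and monocyte (12) and B and plasma cell genes (5) were negative too, with medians of -1.413, -1.314 and -1.325. Of Kupffer cell genes 4 of 6 were positive, and of neutrophil genes 2 of 4. Lamp1, a lysosomal membrane protein of all cells, and Rab27a, which guides granules to the membrane, were the most abundant of the cytotoxic list. Of 12 T cell recruiting chemokines and receptors 9 were tested, and 2 were lower in metastases in the mean tissue effect. That effect called 5.88% of all genes tested, in either direction. Ccl21a, a chemokine of lymphatic vessels, differed by -3.46 ± 0.73 (SE, adjusted p = 0.0234), with 0 to 0.289 TPM in metastases and 1.56 to 53.4 TPM in lung tumors. Cxcl16, the ligand of Cxcr6, differed by -1.62 ± 0.40 (SE, adjusted p = 0.0430). Cxcl9, an interferon-induced attractant of activated T cells, was 0.248 and 0.372 TPM in Nfib-floxed metastases and 5.80 and 1.12 TPM in RPR2 metastases. In lung tumors Cxcl9 was 0.301, 14.0 and 1.18 TPM in Nfib-floxed mice and 3.43, 2.94 and 19.4 TPM in RPR2 mice.

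**Figure D5:**
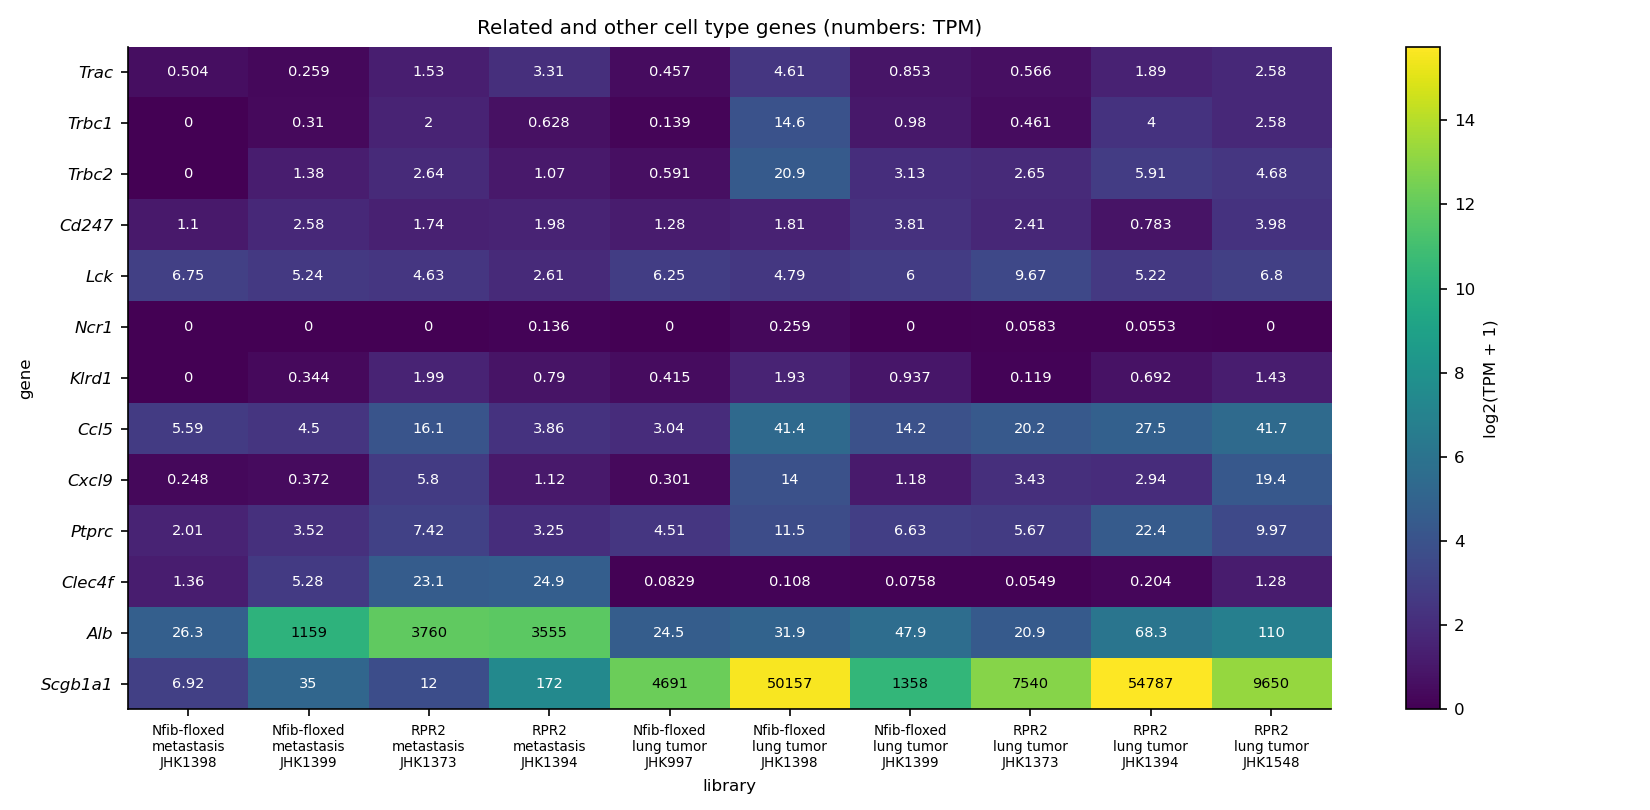
Level of related genes and of genes of other cell types (rows) in the 10 libraries (columns), coloured by log2(TPM + 1) with the TPM printed. Trac, Trbc1, Trbc2 and Ccl5 are highest or near highest in the Nfib-floxed lung tumor of JHK1398, while Ncr1 stays at or below 0.259 TPM throughout.

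Markers of other cells that the pieces could hold also moved between tissues. In the mean tissue effect limma called 5.88% of all genes tested, in either direction. Lower in metastases were 1 of 6 pan-leukocyte genes (Laptm5), 2 of 12 macrophage and monocyte genes (C1qc and Ly6c2) and 1 of 5 tested B and plasma cell genes (Jchain). For 7 of 10 club and alveolar genes the level was lower in metastases too, and for 9 of 10 hepatocyte genes and 3 of 6 Kupffer cell genes it was higher. Their part in the members' levels was not tested. None of the 4 tested neutrophil genes, 3 type 1 dendritic cell genes or the 1 mast cell gene passed in any comparison in limma. Klk1 from the plasmacytoid dendritic cell list and Resp18 from the neuroendocrine list were lower in metastases, in the mean tissue effect and in RPR2 mice.

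The genes whose level was most like that of the members were taken from 14035 genes by Pearson r over the 10 libraries. For the mean of the granule genes these were Ccl5, Kcnv1, Bst2, Acp5, Gbp2, Gngt2, Myo1e and Hcls1, with r from 0.942 for Ccl5 to 0.916 for Hcls1. Ccl5, a chemokine released by killer T cells and other cells, ranged from 3.04 to 41.7 TPM. For the mean of the Cd3 genes they were Psmd4, Slc25a26, Nap1l5, Phf11c, Pstpip1, Tcf21, Gimap5 and Haus7, with r from 0.941 for Psmd4 to 0.882 for Haus7. With so many genes and only 10 libraries, values of this size are a description, and the Cd3 profile is weighted by the high Cd3g of JHK1399.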

How the data were processed

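Tumor RNA was polyA-selected and made into libraries with a NEBNext Ultra II kit, per the labels' protocols. The submitters' processing notes name GRCm38, R 4.1.0, Salmon 0.12.0 and bcl2fastq 2.20, and no source used here gives strand, annotation version or options. The authors deposited TPM per gene, which Salmon estimates by sharing reads among similar transcripts, and the depth per library is unknown. The members and the 16 gene lists were chosen with earlier results of these data known.

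Groups came from the labels. On log2(TPM + 1), a scale that understates changes of low genes, limma 3.58.1 (R 4.3.3) was run for the 15503 genes averaging 1 TPM or more, in a single fit of the 4 groups with 7 contrasts (6 residual and 4.56 prior degrees of freedom), two-sided, with a mean trend and Benjamini-Hochberg adjustment, and was tested on simulated data. Other steps used Python 3.11.15 with pandas 2.3.3. From each list the text names up to 4 genes that passed, otherwise up to 2 of highest level, and the genes most like the members; 1 gene that this rule names is not reported here. Cxcl9, Ccl5, Klrd1, Ncr1, Trac, Trbc1, Trbc2, Ptprc and Alb were chosen for their known roles, outside that rule. Whether tumors of 1 mouse deviate together was checked, since 4 mice gave both tissues by their labels. Deviations from group means, over all genes tested, correlated at -0.023, -0.008, 0.043 and 0.049. With 2 libraries in each metastasis group their deviations mirror each other, so these values are not independent. They do not describe single members, and Cd3g departed from its neighbours in both tumors of JHK1399. Alternatives were other pseudocounts, filters and scalings, array weights, mouse as a block, the compared groups alone, and leaving out libraries.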

Additional observations from a re-analysis of the deposited data

Results flagged for a closer look

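Cd4 and Cd3d stood out because the tissue difference ran in opposite directions in every mouse of the 2 genotypes, lower in the metastasis in both Nfib-floxed mice and higher in both RPR2 mice. The interaction of Cd4 in limma, from the fit that did not pair the tumors of a mouse, was -0.69 on the log2 scale with an adjusted p = 0.901. With mouse as a fixed block, which pairs them, it was not called either. Cd3d was below the level tested, and in the limma fit with no filter its interaction was -1.11 with an adjusted p = 0.693. The groups were too small, at 2 or 3 libraries, for single libraries to be examined as outliers.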

How the results depend on the processing

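Of 543 recomputed log2 differences of the 4 tested members, 528 kept their direction and their side of the threshold, 11 changed sign and 4 passed it, all 4 for Gzma, which kept its sign in every alternative. The members called in the mean tissue effect came to 1 with a pseudocount of 0.1 (Gzma, -3.34, adjusted p = 0.0338 in limma), and those called between RPR2 metastases and lung tumors to 1 with array weights (Gzma, -2.32, adjusted p = 0.0267 in limma). Leaving out each library gave 0 to 1 members called in both comparisons, with 1 without the RPR2 lung tumor of JHK1373. The members lower in the metastasis in every mouse were 8 without JHK1373, a pattern of 3 mice that 18.6% of genes averaging at least 1 TPM and 8.49% of those below it share. For all of these the cause was not tested.

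Over all alternatives the genes called ranged from 0 to 445 around 316 between genotypes in metastases, from 272 to 2069 around 869 between tissues in RPR2 mice, from 0 to 40 around 19 in Nfib-floxed mice, from 13 to 142 around 90 for the interaction, from 232 to 1174 around 911 for the mean tissue effect and from 26 to 415 around 99 for the mean genotype effect.

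In RPR2 metastases against lung tumors Nkg7 came to 0.024 with quantile normalization, and Cd4 to 0.11 in the paired fit with mouse as a fixed replicate block. Mouse as a random block changed no call, and with either block limma called 0 members in each comparison. In the mean tissue effect Gzma had an adjusted p of 0.0574 with the random block and 0.141 with the fixed block in limma. Where a library left out leaves a group with 1, that library is assumed to vary like the other groups. Leaving out each library moved Nkg7 between -1.11 and 0.38 and Cd4 between -0.19 and 0.68 in Nfib-floxed against RPR2 lung tumors, and Cd3g between -0.67 and 1.51 in metastases. In RPR2 metastases against lung tumors Nkg7 lay between -0.93 and 0.29 and Cd4 between -0.76 and 0.11. The interaction lay between -1.74 and 0.43 for Cd3g and between -1.35 and 0.14 for Nkg7, and the mean genotype effect between -0.35 and 0.089 for Cd4. Depth is unknown, and members near 0 TPM and groups of 2 or 3 libraries limit what could be detected. The alternatives that leave out a paired mouse or a metastasis from counts over members were chosen after seeing the data.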
